A study of Rattus norvegicus with 4 samples.

Results

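Slc28a2 and Slc29a1 encode carriers that move nucleosides across cell membranes, and Dck encodes the kinase that starts the reuse of deoxynucleosides inside the cell. For all 3 genes the ratio of liver RNA from rats given α-naphthylisothiocyanate (ANIT) over that from rats given olive oil was low. The direction of this ratio was inferred from the labels, as described below. The genes were found by their exact symbol in the annotation of the array's features. Each was represented by 1 feature, so that 3 of the 1936 features of the array are described here. They were selected with the treatment ratios of these arrays known. Their low ratios are therefore given as a description, without a test.

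Male Sprague-Dawley rats received 75 mg/kg of ANIT intraperitoneally, from a solution of 7.5 mg/mL in olive oil, or the same volume of olive oil alone, and the livers were taken 24 h later. ANIT is a toxicant that damages the bile duct epithelium and is used as a model of cholestasis. Each condition was a pool of total RNA from 3 rats, and poly(A) RNA of both pools was hybridised together to 4 spotted cDNA arrays, the ANIT pool carrying Cy5 on arrays 1 and 3 and Cy3 on the other two. That the same pair of pools was used on all 4 arrays is a reading of the labels, which do not say so outright. On this reading each condition had 1 pool, so that animals cannot be compared, each SD below is over 4 hybridisations, and there is no p-value. The age of the rats was not given in the sources used here. In a whole-liver pool, fewer cells of a type and less RNA per cell cannot be told apart.

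Nucleosides are polar and cross membranes through carriers. Slc28a2 encodes the concentrative nucleoside transporter CNT2, which uses the sodium gradient to take up purine nucleosides and uridine. Slc29a1 encodes ENT1, an equilibrative carrier of the plasma membrane that lets nucleosides, adenosine among them, pass in either direction along their gradient. Dck encodes deoxycytidine kinase, which adds the first phosphate to deoxycytidine, deoxyadenosine and deoxyguanosine and so traps them in the cell for DNA synthesis and repair. The kinase also activates nucleoside drugs such as cytarabine and gemcitabine, which need carriers of these families to enter cells.

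The DNA just upstream of the start sites is shown because the 3 genes shared a low ratio and because these windows differ between them. Each line gives the 250 bases before the gene's start in RefSeq's promoter table (build GRCr8), read 5′ to 3′ along the gene. Capitals mark matches, on either strand, to a set of motifs. The first was GGGCGG, the GC box bound by Sp1 and related factors. The second was TATAAA, the TATA box that places the start of transcription in some genes. The others were CCAAT, bound by the factor NF-Y, and the palindrome TTGCGCAA, a sequence bound by C/EBP factors. The motifs were chosen after the windows were seen. Slc28a2 lies on the plus strand at chr3:129819538-129819787, Slc29a1 on the plus strand at chr9:22896849-22897098 and Dck on the minus strand at chr14:19610327-19610576. The annotated Slc28a2 gene begins upstream of the start used by the table, so that its window lies within the span of the gene.
Slc28a2: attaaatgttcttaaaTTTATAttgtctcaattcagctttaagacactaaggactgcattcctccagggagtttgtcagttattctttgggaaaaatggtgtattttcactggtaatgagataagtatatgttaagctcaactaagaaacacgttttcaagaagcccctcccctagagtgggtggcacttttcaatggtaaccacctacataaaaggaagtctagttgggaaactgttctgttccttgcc
Slc29a1: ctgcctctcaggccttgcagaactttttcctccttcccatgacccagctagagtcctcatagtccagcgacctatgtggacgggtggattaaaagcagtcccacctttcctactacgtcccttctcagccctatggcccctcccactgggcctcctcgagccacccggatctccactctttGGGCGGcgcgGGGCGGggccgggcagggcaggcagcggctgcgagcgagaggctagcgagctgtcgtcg
Dck: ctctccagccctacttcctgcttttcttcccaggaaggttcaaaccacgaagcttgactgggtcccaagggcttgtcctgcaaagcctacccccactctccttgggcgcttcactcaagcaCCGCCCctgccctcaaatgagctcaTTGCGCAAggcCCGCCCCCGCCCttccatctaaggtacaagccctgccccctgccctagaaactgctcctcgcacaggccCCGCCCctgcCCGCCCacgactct

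The Slc28a2 window was poor in G and C, at 38% against a median of 51.2% over 33465 windows of the same length, and 9.80% of windows held less. The windows of Slc29a1 (63.6%) and Dck (62.4%) were GC-rich, above 82.1% and 79.8% of all windows. No GC box was found in the Slc28a2 window, whereas Slc29a1 had 2 and Dck 5. The related carriers Slc29a2 and Slc29a3, whose mean ratios did not reach 2-fold, had 2 and 5 in their windows. At least 1 GC box was present in 30.5% of all windows. The TATAAA match of Slc28a2, on the reverse strand, lay 234 to 229 bases before the start, and 12.9% of windows held this motif. Dck had 1 match to TTGCGCAA, 104 to 97 bases before its start, which 0.140% of windows held. CCAAT, present in 34.0% of windows, was found in none of the 3, but in the windows of both Slc29a2 and Slc29a3. These matches describe letters in the windows and say nothing about binding in these livers.

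Values are log2 ratios of the ANIT pool over the olive oil pool. The direction is likely and not stated anywhere. It rests on the order of the channels in the labels, which put olive oil first and ANIT second on every array. If the deposited ratios ran the other way, the 3 genes would be higher in the ANIT pool by the same amounts, and every share of features called lower and higher below would trade places. The values were read as base 2, a base that the labels do not name. With natural logarithms the folds would be 3.94 for Slc28a2, 3.07 for Slc29a1 and 3.32 for Dck.

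Slc28a2 had log2 ratios of -1.49, -1.38, -1.42 and -1.19 on arrays 1 to 4. Its values were negative on every array, with the highest on array 4, and those of the 2 dye orientations met between -1.42 and -1.38 without overlapping. The mean was -1.37 ± 0.13 (SD, n = 4 hybridisations), which is 2.58-fold lower in the ANIT pool. The single arrays gave folds from 2.28 to 2.81. Slc28a2 ranked 30th lowest of the 1936 features.

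Slc29a1 had log2 ratios of -1.23, -1.15, -1.22 and -0.89 on arrays 1 to 4. Both arrays with ANIT in Cy5 were almost equal, and the value on array 4 was the highest. The mean of -1.12 ± 0.16 (n = 4) is 2.18-fold lower in the ANIT pool, and the gene ranked 53rd lowest. On array 4 alone the fold was 1.85.

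Dck had log2 ratios of -0.87, -1.61, -1.12 and -1.21 on arrays 1 to 4. It varied most of the 3, with its highest value on array 1 and its lowest on array 2. Both values with ANIT in Cy3 lay below both with ANIT in Cy5. The mean of -1.20 ± 0.31 (n = 4) is 2.30-fold lower, with single-array folds from 1.82 to 3.05, and the gene ranked 44th lowest.

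All 3 features passed the size rule, a mean of at least 1 in size (2-fold) with the same sign on all 4 arrays. The same rule called 3.05% of all features lower and 0.775% higher in the ANIT pool. Since the genes were selected on this contrast, nothing is read from that share. None of the 3 reached 3-fold, which 1.19% of features did in the same direction. Of 1936 features, 23 had all 4 values within the span of the 12 values of the 3 genes, from -1.61 to -0.87. Of these 23, 22 carried 1 symbol, for 17 genes.

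Slc28a2 was lower than Slc29a1 on all 4 arrays, by -0.30 to -0.19, with a mean difference in log2 ratio of -0.25 ± 0.05 (n = 4). The difference compares 2 ratios of these pools and not the levels of the transcripts, and it was not tested. Dck did not hold a fixed place relative to either carrier, and its place went with the dye orientation. It was above Slc28a2 and Slc29a1 on arrays 1 and 3, with ANIT in Cy5. On arrays 2 and 4, with ANIT in Cy3, it was below both. Mean differences were -0.17 ± 0.37 for Slc28a2 minus Dck and 0.08 ± 0.38 for Slc29a1 minus Dck.

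**Figure D1:**
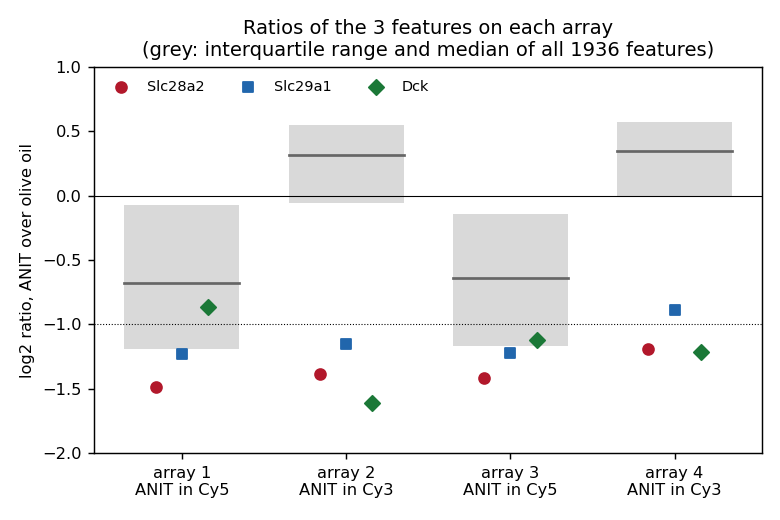
The log2 ratio of ANIT over olive oil (vertical axis) of Slc28a2, Slc29a1 and Dck on each of the 4 arrays (horizontal axis), with grey boxes for the interquartile range and grey lines for the median of all 1936 features on that array; the dotted line is the 2-fold limit. The 12 points lie between -1.61 and -0.87 on all arrays, while the grey boxes shift with the dye, so that Dck lies inside the box on arrays 1 and 3.

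The position of these ratios among all features depended on the dye. The median of all features was -0.68 on array 1 and -0.64 on array 3, against 0.31 on array 2 and 0.35 on array 4. With ANIT in Cy3, the 3 genes stood at the low end. On array 2, 1.65% of features were at or below Slc28a2, 2.27% at or below Slc29a1 and 1.03% at or below Dck, and on array 4 these shares were 1.96%, 3.31% and 1.86%.

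With ANIT in Cy5 the same genes stood much less apart. On array 1, 11.7% of features were at or below Slc28a2, 23.0% at or below Slc29a1 and 41.5% at or below Dck. On array 3 the shares were 13.3%, 22.6% and 27.9%. Dck was thus near the middle of the features on array 1. By the same rule applied to these 2 arrays alone, 34.5% of all features were lower, Slc28a2 (-1.45) and Slc29a1 (-1.23) among them, while Dck (-0.99) fell just short. With ANIT in Cy3 alone the rule called 2.84% of features lower, the 3 genes among them (Slc28a2 -1.29, Slc29a1 -1.02, Dck -1.41).

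The dye contrast, which is log2 of Cy5 over Cy3 and is estimated as 0.5 times the difference between the orientations, was -0.08 for Slc28a2, -0.10 for Slc29a1 and 0.21 for Dck. The median over all features was -0.40, and 837 features (43.2%) had a dye contrast of -0.5 or below. Of these 837, 564 were among the 1432 features with 1 symbol. A smaller dye contrast in size than that of Slc28a2 was found for 18.0% of features, than that of Slc29a1 for 22.2% and than that of Dck for 36.4%. Of the 59 features lower by the size rule, only 6 had a dye contrast of -0.5 or below. A dye contrast above this limit was therefore not particular to the 3 genes. In all, 1092 features had opposite signs in the 2 orientations, and 341 (17.6%) were negative on all 4 arrays, as the 3 genes were.

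Centring each array on its median raised every mean by 0.17 and moved the median of all features from -0.25 to -0.09. Slc28a2 then had a mean of -1.20 and Dck of -1.04, and Slc29a1, at -0.96, no longer reached 2-fold, so that 2 of the 3 were lower, beside 2.48% of all features. Lower calls over all features went from 59 of 74 (79.7%) to 48 of 70 (68.6%). With the direction turned, lower calls would be 15 of 74 and 22 of 70. Centring widened the spread of the 3 genes, to an SD of 0.48 for Slc28a2, 0.46 for Slc29a1 and 0.83 for Dck. Centred values of Dck ran from -0.19 on array 1 to -1.92 on array 2.

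**Figure D2:**
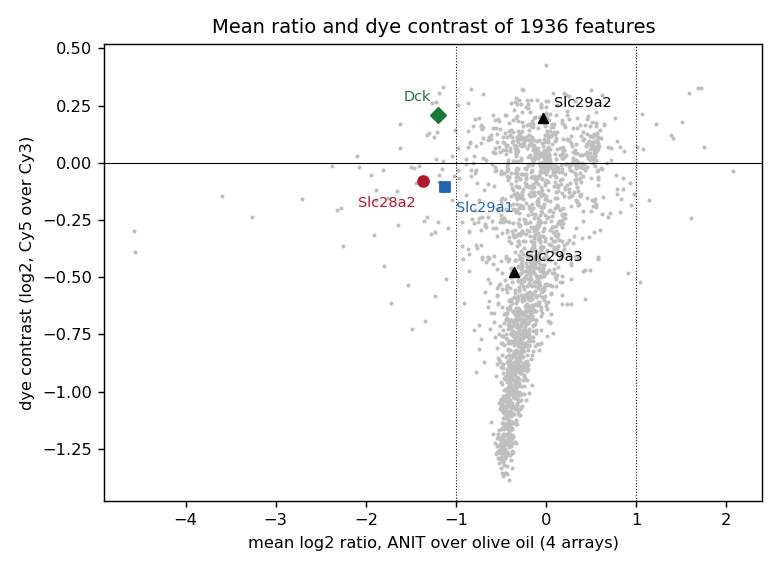
The mean log2 ratio over 4 arrays (horizontal axis) against the dye contrast (vertical axis, log2 of Cy5 over Cy3) for all 1936 features in grey, with Slc28a2, Slc29a1 and Dck in colour and Slc29a2 and Slc29a3 as black triangles; dotted lines mark the 2-fold limits. The 3 coloured points lie left of -1 with dye contrasts between -0.10 and 0.21, and Slc29a3 lies in the grey column of features that follow the dye.

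Of 7 listed nucleoside carriers, 4 were measured. Besides Slc28a2 and Slc29a1 these were Slc29a2, which encodes the equilibrative carrier ENT2 for nucleosides and nucleobases, and Slc29a3, which encodes ENT3, a carrier of intracellular membranes. Slc29a2 had log2 ratios of 0.15, -0.04, 0.17 and -0.42 on arrays 1 to 4. Its mean of -0.04 ± 0.28 had no constant sign. Slc29a3 had values of -0.87, 0.07, -0.79 and 0.18. It was negative on both arrays with ANIT in Cy5 and slightly positive on both others, with a mean of -0.35 ± 0.55. On every array Slc28a2 and Slc29a1 had lower ratios than both of these carriers, a difference that was not tested.

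Of 22 listed nucleoside and nucleotide kinases, 9 were measured, and Dck was the only one past the size rule. Dtymk, thymidylate kinase, which adds the second phosphate on the way to dTTP, had ratios of -0.58, -0.59, -0.61 and -0.47. These values were close on all arrays, with a mean of -0.56 ± 0.06 that is 1.47-fold lower. Dguok, the mitochondrial deoxyguanosine kinase and a relative of Dck, had ratios of -0.77, 0.15, -0.80 and 0.24. Its sign followed the dye, and the mean was -0.29 ± 0.57.

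The other kinases act on nucleotides. Nme2, a nucleoside diphosphate kinase that makes triphosphates, had positive ratios on all arrays and a mean of 0.49 ± 0.25. Its relative Nme1 stood at -0.05 ± 0.08, Nme3 at -0.25 ± 0.30 and Nme4, a mitochondrial form, at -0.51 ± 0.71. Guk1, guanylate kinase, had a mean of 0.17 ± 0.46, and Ak3, an adenylate kinase of mitochondria, of -0.48 ± 1.03. The values of Nme1, Nme3, Nme4, Ak3 and Guk1 differed more between the dye orientations than their means differed from 0.

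Few genes of nucleoside breakdown and synthesis were measured. Pnp, purine nucleoside phosphorylase, which splits inosine and guanosine, had 2 features at -0.55 ± 0.12 and -0.18 ± 0.74. The first was negative on all 4 arrays, from -0.68 to -0.40, whereas the second changed sign with the dye. Uox, urate oxidase, which oxidises urate on the way to allantoin, the end product of purine breakdown in rats, had a mean of -0.48 ± 0.20 and lay between -0.74 and -0.28. Hprt1, the salvage enzyme of hypoxanthine and guanine, stood at -0.10 ± 0.12 and -0.20 ± 0.81 on its 2 features. Ppat, the first enzyme of purine synthesis, stood at 0.14 ± 0.43. No listed gene of deoxynucleotide synthesis, such as those of ribonucleotide reductase, was measured under the symbols used.

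Across the 6 lists of carriers and enzymes, 14 genes other than Slc28a2, Slc29a1 and Dck were measured. None of the 14 was lower or higher by the size rule, their median was -0.27, and the lowest was Dtymk. The median over all 958 genes was -0.24, and the rule on gene means called 3.55% of them lower and 0.626% higher. Among 8 genes of purine receptors and ecto-enzymes the median was -0.31 and none was lower. Alpl, the tissue-nonspecific alkaline phosphatase, which can release adenosine from AMP outside cells, was higher on both of its features (1.39 ± 0.18 and 1.14 ± 0.19). The adenosine receptors Adora2a (-0.37 ± 0.84) and Adora2b (-0.26 ± 1.10, -0.20 ± 0.78 and -0.08 ± 0.54 on 3 features) changed sign with the dye.

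**Figure D3:**
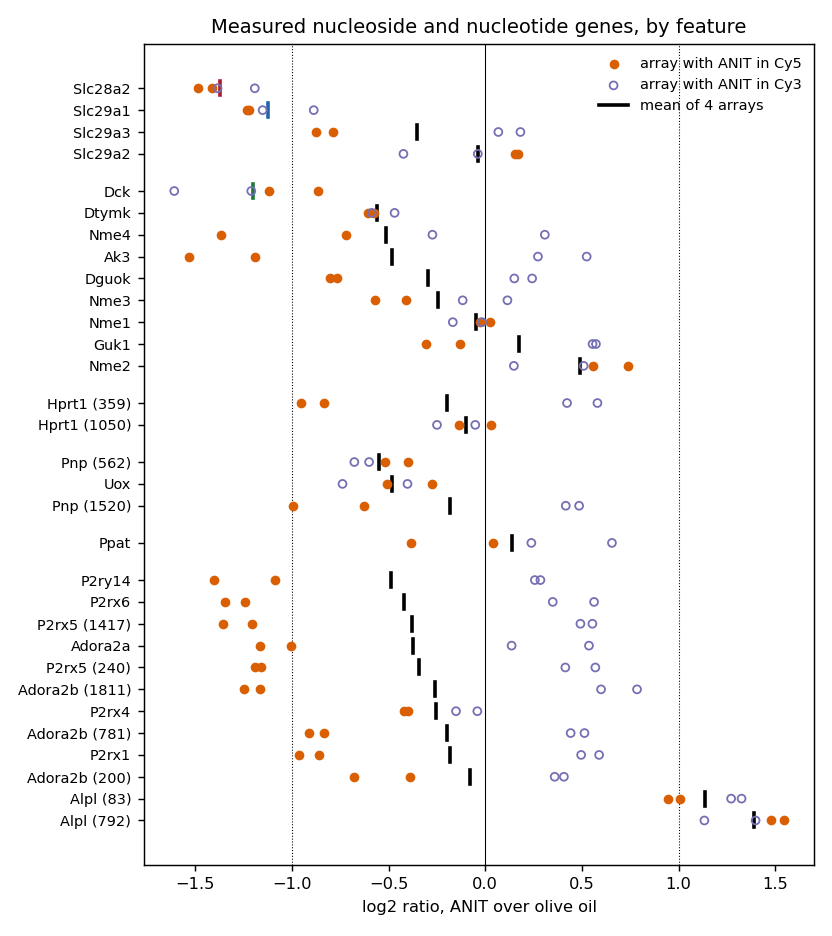
The log2 ratio of ANIT over olive oil (horizontal axis) of each measured feature of the nucleoside lists (rows, grouped as carriers, kinases, base salvage, breakdown, purine synthesis, and receptors with ecto-enzymes; a feature number follows genes with several features), with filled points for ANIT in Cy5, open points for ANIT in Cy3, and a bar for the mean of 4 arrays. Slc28a2, Slc29a1 and Dck are the only rows with a mean below -1, and the 2 Alpl features the only rows with a mean above 1.

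Among other solute carriers of the Slc families, 3 of 88 features (3.41%) were lower by the size rule and none was higher, beside 3.05% and 0.775% of all features. Of the 1432 features with 1 symbol, as these carriers have, 52 (3.63%) were lower and 9 were higher. The 3 lower features of these carriers were that of Slc22a8, an organic anion carrier (-1.81 ± 0.16), and both of Slc10a1, the sodium-dependent bile acid carrier (-1.46 ± 0.02 and -1.41 ± 0.08). The median over these 46 genes was -0.28, beside -0.24 for all genes, and 2 of the 46 were lower by gene mean. Of 11 features of Slco organic anion carriers 1 was lower, that of Slco1a4 (-1.91 ± 0.37), whose other feature stood at -0.10 ± 0.10. The median over the 3 Slco genes was -0.74, and 1 of them was lower by gene mean.

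The features nearest to each of the 3 genes were found by the root mean square difference of their log2 ratios over the 4 arrays, among 1429 features of other genes with 1 symbol. Nearest to Slc28a2 was Rab25, a small GTPase of epithelial cells, at 0.10. It was followed by both Slc10a1 features (0.13 and 0.16), Cyp2j3 (0.19) and Cyp4f4 (0.19), cytochromes P450 that oxidise fatty acids. Nearest to Slc29a1 were Igfals, a plasma protein that binds insulin-like growth factors (0.09), both Cyp2j3 features (0.10 and 0.11), the receptor Notch3 (0.13) and the other Cyp4f4 feature (0.13).

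Dck had other neighbours. Nearest were both features of Ang, the ribonuclease angiogenin (0.13 and 0.18), both features of Cyp27a1, the sterol 27-hydroxylase (0.16 and 0.18), and Tst, thiosulfate sulfurtransferase (0.18). All 5 had their lowest value on array 2, as Dck did. Slc28a2 and Slc29a1 shared 1 feature among their nearest 5, that of Cyp2j3, and Dck shared none with either. Slc29a1 was the 13th nearest feature to Slc28a2 (0.25) and Dck the 22nd (0.36), of 1431 features.

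**Figure D4:**
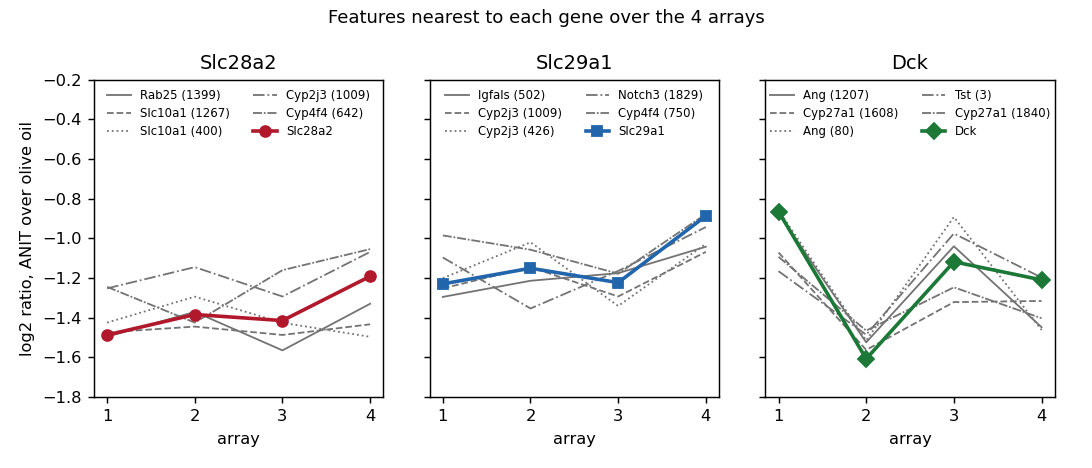
The log2 ratios of Slc28a2, Slc29a1 and Dck (coloured, 1 panel each) on arrays 1 to 4 (horizontal axis) with the 5 nearest features of other genes (grey lines, feature number in brackets). Slc28a2 and Slc29a1 are highest on array 4, and in the Dck panel every line is lowest on array 2. The grey lines were chosen by these same values, which favours their likeness to the coloured line.

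Each of the 3 genes had 1 feature, and so no other feature of the same gene to set beside it. Of 41 genes with a lower feature, 20 had several features. In 10 of these 20 every feature was lower, and in 9 at least 1 feature had a mean above -0.5. Dck is abundant in lymphoid cells. Of 6 listed proliferation markers 4 were measured, with gene means from -0.41 to -0.36, and 8 of their 11 features had a dye contrast of -0.5 or below. Of the other 3, 1 feature of Cdk1, a kinase that drives mitosis, was negative on all 4 arrays at -0.97 ± 0.12, with a dye contrast of -0.06, while the gene's 5 features ran from -0.97 to 0.08. Of 8 lymphocyte markers 2 were measured, Il2rb (-0.84 ± 0.12) and Lck (-0.38 ± 1.09). Among hepatocyte markers 5 of 10 were measured, with gene means from -0.51 to 0.07, and none of the 5 passed the rule by its gene mean. Of their 12 features, 2 of the 7 of Cyp2e1 were lower (-1.24 ± 0.14 and -1.05 ± 0.14), both negative on all 4 arrays. Cholangiocyte (2 of 8 measured), neutrophil (1 of 5), endothelial (3 of 6) and stellate cell and fibroblast markers (2 of 7) had medians of -0.34, -0.13, -0.33 and -0.16, beside -0.24 for all genes, with none past the rule. These medians joined opposite signs by dye. In the same order they were -1.32, -0.90, -1.08 and -0.48 with ANIT in Cy5, against 0.63, 0.64, 0.41 and 0.17 with ANIT in Cy3. No macrophage marker was measured under the symbols listed. Ratios give no level, so the presence of these cells could not be checked, and their part in the ratios of the 3 genes was not tested.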

How the data were processed

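The authors deposited 1 log ratio of the 2 channels for each feature and array, read here as log2. The spotted cDNA array, the pooled RNA, the dyes and their swap are per the labels; the labels used here do not name the scanner, any correction or normalization, or the base and direction of the ratio. Medians far from 0 on every array mean that the values were not centred on the median of all features. Whether they were centred on some subset of features cannot be told from these medians. Values were used as deposited, with the sign equal on all arrays. Of 1936 features, 1432 carried 1 symbol, 19 several and 485 none, and 1429 of the 1432 matched a RefSeq gene of the rat assembly GRCr8 by gene ID. Genes outside the 3 were described by 17 lists, with the mean over a gene's features, by counts and medians. Named genes were all features of the 3 genes, genes of the lists past the rule or largest in size, every measured gene of the nucleoside lists where useful, and the 5 nearest features of each. The 3 genes and the lists were chosen with earlier results of these data known. Precision is limited by the number of arrays and, on the reading above, by 1 pool per condition, which more arrays would not change. Intensities were not used here. The arrays are taken as technical repeats, each condition counts as 1 replicate, and no test was run. Alternatives were centring, single orientations, each array left out with the orientations weighted equally, other size limits, natural logarithms, the opposite direction, no rule on sign, medians and single features. The steps were tested on simulated data. Computation used numpy 2.4.6 and pandas 2.3.3 under Python 3.11.15, with matplotlib 3.10.9 for figures.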

Additional observations from a re-analysis of the deposited data

Results flagged for a closer look

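Of 31 features of the nucleoside lists, 16 had one sign on both arrays with ANIT in Cy5 and the opposite sign on both arrays with ANIT in Cy3. The same held for 56.4% of all features, beside 51.6% here, and the difference between orientations was not tested. Among carriers these were Slc29a3, with a dye contrast (log2 of Cy5 over Cy3) of -0.48, and Slc29a2, at 0.20. Among enzymes the dye contrast was -0.88 for Ak3, -0.49 for Dguok, -0.39 for Guk1, -0.70 for 1 feature of Hprt1 and -0.63 for 1 feature of Pnp. Among receptors it was -0.71 for Adora2a, -0.95, -0.68 and -0.46 for the features of Adora2b, -0.73 for P2rx1, -0.90 and -0.83 for those of P2rx5, -0.87 for P2rx6 and -0.76 for P2ry14. Slc28a2, Slc29a1 and Dck were not among the 16. None of the 31 features had an array that stood apart from the other 3 by Dixon's criterion. Where the values fell into pairs by dye, a single array could hardly stand apart, so this says little for those features.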

How the results depend on the processing

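Slc28a2, Slc29a1 and Dck stayed below 0 under every alternative run except the opposite direction, which gave 1.37, 1.12 and 1.20. Since every value of these genes was negative as deposited, only centring among the other alternatives could have changed the sign. With each array left out, the means ran from -1.42 to -1.32 for Slc28a2, from -1.19 to -1.06 for Slc29a1 and from -1.30 to -1.10 for Dck, and all 3 remained past 2-fold. Centred arrays gave -1.20 for Slc28a2 and -0.96 for Slc29a1, and natural logarithms, as log2, -1.98, -1.62 and -1.73 for Slc28a2, Slc29a1 and Dck. The 2-fold calls among the 3 genes were 2 with centred arrays (without Slc29a1) and 2 with ANIT in Cy5 alone (without Dck), and 0 at 3-fold. Over all features, lower calls were 667 with ANIT in Cy5 alone, 134 at 1.5-fold, 23 at 3-fold and 113 with natural logarithms, and higher calls were 48, 5 and 33 for the last 3 settings. The median of nucleoside carriers was -0.74 as deposited and -1.03 with ANIT in Cy5 alone. It was taken over Slc28a2, Slc29a1, Slc29a2 and Slc29a3, and so includes the selected carriers. That of breakdown genes was -0.42 as deposited and -0.26 with centred arrays. The median of Slco carriers was -0.74 as deposited, -1.19 with ANIT in Cy5 alone and -0.39 with features on their own. Without spot intensities, the signal over background behind each ratio is unknown.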
